A study of Drosophila melanogaster with 23 samples.

Results

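The genes described here are those of the fourth chromosome of Drosophila melanogaster, the small autosome of the fly. They were taken from the count table as every gene that the BDGP6.54 annotation places on chromosome 4, apart from symbols starting RpL or RpS, a rule that removed RpS3A alone of 112 genes. This left 111 genes of the 17606 in the table: 79 code for proteins, 24 are noncoding RNAs, 7 are pseudogenes and 1 is a snoRNA. The pseudogene CR32010 had at most 13 counts in any library and failed the filter on low counts, so 110 genes were tested, among 14365 tested in all.

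The study measured total RNA of whole first-instar (L1) larvae, male and female pooled, in 23 libraries of 25-30 larvae from crosses kept at 25 °C. Set21 larvae (4 libraries) are mutant for Set2, and yw (3 libraries) is the stock they were set against. The other genotypes concern histones and have 4 libraries each. H3.3K36RH3.2K36R larvae, called combined below, carry an arginine in place of lysine 36 both in the variant histone H3.3 and in the replicated histone H3.2. H3.3K36RH3.2HWT larvae, called H3.3K36R below, carry it in H3.3 only, beside H3.2 labelled HWT. H3.3CtrlH4K16R larvae, called H4K16R below, carry an arginine at lysine 16 of histone H4 with an H3.3 labelled as control. H3.3CtrlH3.2HWT larvae, called control below, are the reference of the histone genotypes and carry both control labels. The labels give no further allele, transgene or background, and each library is a pool of larvae, so differences between animals or sexes cannot be read.

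The fourth chromosome is mostly packed in heterochromatin marked by methylation of histone H3 at lysine 9 and bound by the protein HP1a, yet its genes are transcribed. The protein POF, named for painting the fourth, binds the chromosome as a whole and its nascent transcripts and raises their output, and egg encodes the lysine 9 methyltransferase that acts there. Set2 places trimethylation on lysine 36 of histone H3 in the bodies of transcribed genes, the residue that the K36R genotypes remove, and lysine 16 of histone H4 is the residue acetylated on the dosage-compensated male X.

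Library totals ran from 111138070 to 157973821 counts, and no 2 replicates were alike within counting error. Set2 averaged 6.51 ± 1.2 CPM (count scaled to library size) in Set21 larvae and 77.3 ± 6.2 CPM in yw larvae (SD, n = 4 and 3), and its log2 fold change was -3.57 ± 0.11 (SE, adjusted p = 1.3e-15, edgeR's quasi-likelihood test with Benjamini-Hochberg adjustment). A pair of libraries stood apart. In Set21 replicate 3, chromosome 4 genes held 1.63% of the counts, against 2.27 to 2.58% in the other Set21 libraries, and 25 neuron markers summed to 1812 CPM against 4137 to 4585 CPM. H4K16R replicate 3 was the highest or lowest of its group by a wide gap for 8 named genes. The main counts are also given without these libraries.

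As a whole, the fourth stood lower in Set21 larvae than in yw larvae, while the histone genotypes overlapped their control. The distance of the chromosome from the large autosomes was taken in each library as an index, the mean log2 CPM of its 110 tested genes less the mean of the 11851 tested on 2L, 2R, 3L and 3R. The index was 1.42, 1.48, 1.15 and 1.47 in the Set21 libraries, and 1.69, 1.74 and 1.86 in the yw libraries. Each Set21 library therefore lay below each yw library, also with replicate 3 left aside. The index averaged 1.76 ± 0.078 in combined, 1.53 ± 0.106 in H3.3K36R, 1.60 ± 0.089 in H4K16R and 1.68 ± 0.074 in control larvae (SD, n = 4 each). The ranges of combined and of H4K16R larvae overlapped that of control larvae, 1.57 to 1.73, and so did the range of H3.3K36R larvae, 1.39 to 1.63.

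The share of all counts, in which strongly expressed genes weigh most, was ordered differently. It was 1.91% ± 0.0803 in combined, 2.33% ± 0.0696 in H3.3K36R, 2.16% ± 0.0523 in H4K16R and 2.35% ± 0.122 in control larvae, and 2.21% ± 0.41 in Set21 larvae against 2.40% ± 0.0449 in yw larvae. The lower Set21 mean rested on replicate 3, at 1.628%. Replicates 1, 2 and 4 had 2.272, 2.375 and 2.577%, below and above the yw range of 2.348 to 2.429%. Over all libraries, bt, which encodes the giant muscle protein projectin, averaged 6941 CPM, and apolpp, the precursor of the lipid carrier lipophorin, averaged 4147 CPM. ATPsynbeta (mitochondrial ATP synthase), the calcium pump gene PMCA, the translation scaffold gene eIF4G1 and the synaptic gene unc-13 followed with 1522, 930.4, 930.0 and 602 CPM. Per kilobase of exon the order was different: ATPsynbeta led with 638 CPM per kb, followed by apolpp with 353, bt with 248, eIF4G1 with 142 and the respiratory complex I gene ND-49 with 140.

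**Figure D1:**
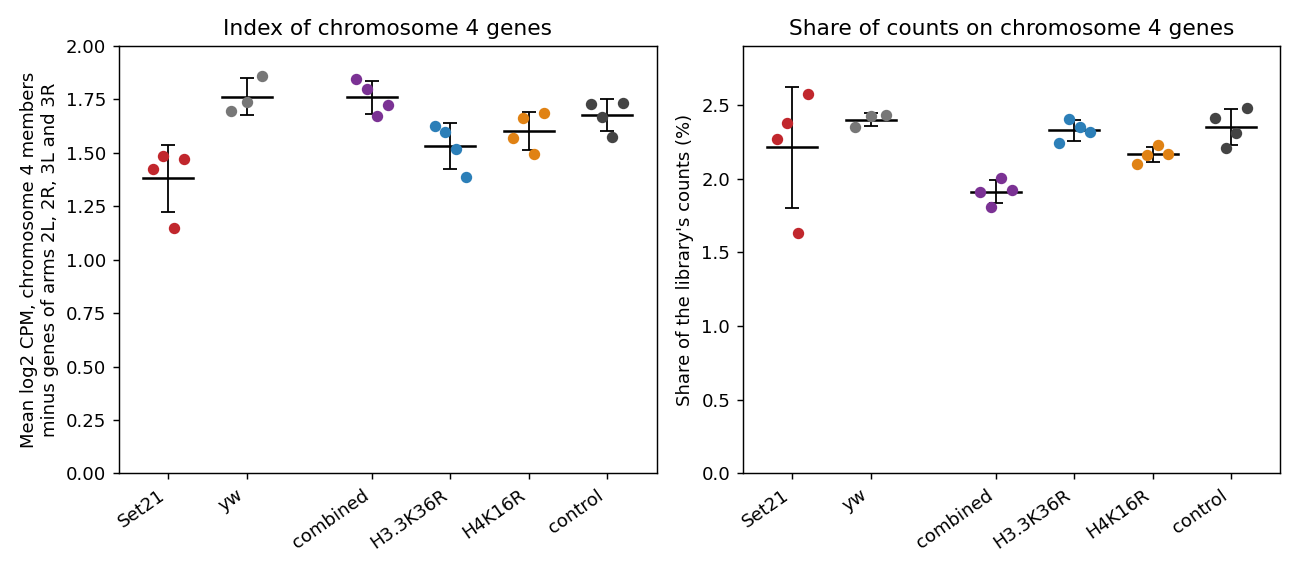
Left, the index of each library (mean log2 CPM of chromosome 4 genes less the mean of the 4 large autosomal arms); right, the percentage of each library's counts on these genes; points are libraries, bars the group mean and SD. The Set21 libraries lie at 1.15 to 1.48 on the left, below the yw libraries at 1.69 to 1.86, and the combined libraries have the lowest mean share on the right, 1.91%.

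In Set21 larvae, 47 of the 110 genes were called lower and 10 higher than in yw larvae (adjusted p below 0.05), where 21.1% of all tested genes were called lower and 23.4% higher. The median log2 fold change was -0.28 over the fourth and 0.02 over all tested genes. It lay at 0.01 to 0.04 on the 4 large autosomal arms and at 0.00 on the X. Regulators of transcription and genes of neurons were among those that fell, and genes of energy, translation and protein traffic among those that rose. In bulk larvae, fewer cells of a type and less RNA per cell cannot be told apart.

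Of 20 regulators of transcription, 12 fell in Set21 larvae and the others were not called, with a median log2 fold change of -0.47. onecut, a homeobox gene of neurons, had 48.3, 50.1, 40.0 and 45.3 CPM in Set21 libraries, against 98.0, 91.1 and 98.4 CPM in yw libraries. The groups did not overlap, and the log2 fold change was -1.06 ± 0.12 (adjusted p = 2.5e-06). toy and ey are the pair of Pax6 genes that direct eye development. toy had 15.7, 16.4, 14.8 and 15.7 CPM in Set21 libraries and 28.6, 28.3 and 29.5 CPM in yw libraries, a fall of 0.88 ± 0.096 on the log2 scale (adjusted p = 8.98e-07). ey had 7.65, 8.39, 6.32 and 7.29 CPM in Set21 libraries against 12.9, 10.8 and 14.7 CPM in yw libraries, with a log2 fold change of -0.79 ± 0.16 (adjusted p = 5.65e-04). Both Pax6 genes thus lay below every yw library in every Set21 library.

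pan encodes TCF, the DNA-binding factor of Wnt signalling, and had 149.9, 160.5, 126.0 and 179.6 CPM in Set21 libraries against 240.5, 262 and 279 CPM in yw libraries, a log2 fold change of -0.76 ± 0.12. Its partner gene lgs, the fly BCL9, had 100.2 to 119.9 CPM in Set21 and 109.5 to 124.7 CPM in yw libraries and was not called (-0.07 ± 0.068, adjusted p = 0.400). The Hedgehog factor gene ci averaged 93.7 ± 12.1 CPM in Set21 larvae and 93.9 ± 3.78 CPM in yw larvae and was not called either (adjusted p = 0.983). The zinc finger homeobox gene zfh2 (-0.70 ± 0.14), dati (-0.73 ± 0.14), Pur-alpha (-0.64 ± 0.10), the Pax2 homologue sv (-0.51 ± 0.15) and fuss, of the Ski/Sno family (-1.07 ± 0.25), fell as well, as did the DNA glycosylase gene Tdg (-0.41 ± 0.12). The broadly used factors Hcf, MED26, pho and Taf3 were not called, at log2 fold changes of 0.15, 0.05, -0.16 and -0.25. Some of the 12 falls depended on gene length. With each library's trend of log2 CPM on gene length removed, the calls of sv (-0.12), Tdg (-0.07) and Sox102F (0.04) were lost, and pan, zfh2, ey and toy kept theirs at -0.25, -0.24, -0.39 and -0.53. The call of Tdg was also lost in a fit of these 2 groups alone, and that of fd102C without yw replicate 3.

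Of 15 genes of synapses, axon guidance and membrane transport, 11 fell in Set21 larvae and the others were not called, with a median of -0.42. unc-13, which primes synaptic vesicles for release, had 278, 311, 160.6 and 297 CPM in Set21 libraries, against 642, 619 and 698 CPM in yw libraries. The highest Set21 library was far below the lowest yw library, and the log2 fold change was -1.32 ± 0.17 (adjusted p = 7.93e-06). Syt7, a calcium sensor of vesicle fusion, had 22.3, 25.7, 19.8 and 26.4 CPM in Set21 libraries and 45.4, 46.4 and 50.8 CPM in yw libraries (-1.01 ± 0.12). Cadps, which acts in release from dense-core vesicles, fell by 0.80 ± 0.098, the metabotropic glutamate receptor gene mGluR by 0.80 ± 0.13, and dpr7, which encodes an immunoglobulin-domain surface protein, by 0.94 ± 0.12. Falls were smaller for the GABA transporter gene Gat (-0.56 ± 0.12), the kinase gene CaMKII (-0.42 ± 0.096), Ephrin (-0.46 ± 0.076) and PlexB, a semaphorin receptor gene (-0.34 ± 0.083). PlexA, Cals, PMCA and the kainate receptor gene Ekar were not called. With the length trend removed, the calls of CaMKII (-0.07), PlexB (-0.11), Ank (-0.02) and Eph (0.09) were lost. unc-13, Syt7, mGluR, Ephrin and Cadps kept theirs at smaller falls, -0.84, -0.58, -0.53, -0.29 and -0.30.

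Among 7 signalling genes, 4 fell and 1 rose in Set21 larvae. Actbeta encodes an Activin ligand of the TGF-beta family, and had 13.2, 15.5, 12.7 and 13.6 CPM in Set21 libraries against 30.0, 32.5 and 37.3 CPM in yw libraries, a log2 fold change of -1.28 ± 0.14 (adjusted p = 6.93e-07). The levels in Set21 larvae were thus below every yw library by a wide gap. The other TGF-beta ligand genes of the chromosome differed less: myo fell by 0.31 ± 0.084, and mav was at -0.24 ± 0.12 and not called. The gene that rose was Crk, an adaptor of tyrosine kinase signalling, with 64.1, 63.6, 55.5 and 63.7 CPM in Set21 libraries against 48.4, 46.6 and 51.4 CPM in yw libraries (0.34 ± 0.071, adjusted p = 7.25e-04).

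Genes of energy supply, lipid carriage, translation and traffic were mixed. Of 11 such genes, 5 rose, 2 fell and the others, apolpp among them, were not called in Set21 larvae, with a median of 0.14. The falls were those of 4E-T (-0.20 ± 0.079), whose product binds the cap-binding factor eIF4E, and Slip1 (-0.24 ± 0.078), and both calls were lost in a fit of these 2 groups alone. Arl4, a small GTPase gene, was called higher (0.20 ± 0.082, adjusted p = 0.0497), a call lost under 13 of the 15 settings tried. ATPsynbeta had 2103, 1958, 2473 and 2028 CPM in Set21 libraries against 1469, 1719 and 1675 CPM in yw libraries, a log2 fold change of 0.40 ± 0.11 (adjusted p = 0.00505). Arf4, a small GTPase gene of membrane traffic, had 105.5, 90.6, 116.3 and 93.1 CPM in Set21 libraries against 64.3, 62.1 and 62.3 CPM in yw libraries (0.69 ± 0.14, adjusted p = 6.07e-04). Rad23, which encodes a carrier of ubiquitinated proteins, rose by 0.65 ± 0.093. Each of these 3 genes was above every yw library in every Set21 library.

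eIF4G1 had 1565, 1707, 904 and 1417 CPM in Set21 libraries against 1008, 956 and 954 CPM in yw libraries, so that replicate 3 alone lay below the yw range. Its log2 fold change of 0.52 ± 0.17 (adjusted p = 0.0194) was not called in a fit of these 2 groups alone (adjusted p = 0.0727), nor without Set21 replicate 2, yw replicate 3 or yw replicate 4, where it was as low as 0.41. Outside the lists, ND-49 rose by 0.40 ± 0.088 and the uncharacterised genes CG11076 and CG31997 by 0.80 ± 0.22 and 1.15 ± 0.17. CG1909, also without a known role, fell by 1.05 ± 0.13, and of all 54 genes on no list 17 fell and 4 rose. The pseudogene CR33797 was also called higher, with 6, 13, 14 and 3 counts in Set21 libraries and 0 counts in each yw library. It lies within fd102C on the opposite strand, and the call was lost without any 1 yw library, where adjusted p reached 0.0727.

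Markers of cell types moved with these groups, and their part in the result was not tested. Of 25 neuron markers, 21 were called lower in Set21 larvae, and their summed level was 1812 to 4585 CPM in Set21 libraries against 6236 to 7016 CPM in yw libraries. Of 10 glia markers, 8 were called lower, with sums of 854 to 1019 CPM in Set21 libraries against 1440 to 1614 CPM in yw libraries, and the ranges did not overlap for either list. The glia list includes Indy and wun2, and whether its genes are confined to glia was not tested. The list of 16 muscle markers includes bsh, a homeobox gene of the brain. Of these 16 genes, 1 was called lower, with sums of 27352 to 45799 CPM against 33222 to 39751 CPM. Of 12 gut and fat body markers, 5 were lower and 1 higher, with sums of 3454 to 5917 CPM in Set21 libraries against 7112 to 11426 CPM. No neuron, glia or muscle marker was at 0 in any library, while 3 of the 12 gut and fat body markers were at 0 in at least 1 library.

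Without Set21 replicate 3, 44 of the 110 genes were called lower and 16 higher, with a median of -0.19. Shares over all tested genes were not taken without that library. The regulators of transcription then had 12 lower and 2 higher, the genes of synapses and guidance 10 lower, the signalling genes 3 lower and 1 higher, and the genes of energy and translation 1 lower and 6 higher. bt, at 2320 CPM in that library against 7038 to 9966 CPM in the other Set21 libraries and 6847 to 8367 CPM in yw libraries, was not called (-0.13 ± 0.28, adjusted p = 0.742).

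**Figure D2:**
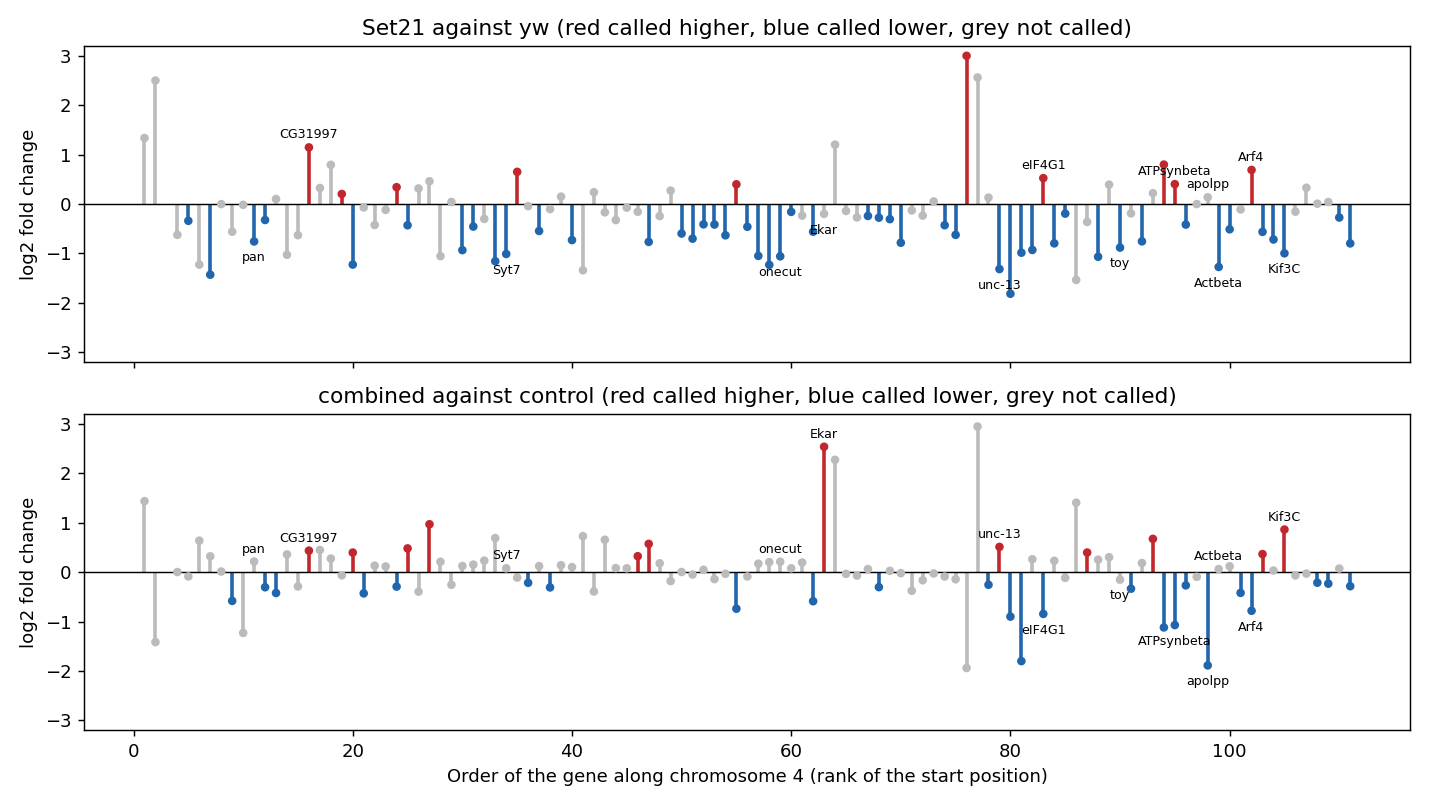
Log2 fold change of each tested chromosome 4 gene in the order of its start along the chromosome, for Set21 against yw (top) and combined against control (bottom), with called genes in red (higher) or blue (lower); 1 value, CR33797 in the upper panel, is drawn at the axis limit of 3. Blue lines, 47 of 110 in the upper panel, are spread along the chromosome, and of the 24 in the lower panel 14 lie among the 37 genes at the right end.

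The genes that fell in Set21 larvae lay along the length of the chromosome. Divided by start position into a left, a middle and a right part, the chromosome had 11 of 37, 18 of 36 and 18 of 37 genes called lower, with medians of -0.30, -0.28 and -0.28. Length and level differed more. The fourth carries long genes: the median gene length was 6897 bases on the fourth and 2085 bases over all tested genes. Among the 37 longest of its genes, 10578 to 52075 bases, 25 were called lower (67.6%), as were 55.5% of 1235 genes of that length on 2L, 2R, 3L and 3R, and the medians were -0.43 on the fourth and -0.37 on the arms. Among the 36 genes of middle length the medians were -0.22 on the fourth and -0.03 on the arms. Among the 37 shortest, 69 to 3158 bases, the median was -0.24 on the fourth and 0.17 on 7788 genes of the arms, and 21.6% and 12% were called lower. The median on the fourth was thus below that of the arms in each length class, least so among long genes.

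**Figure D3:**
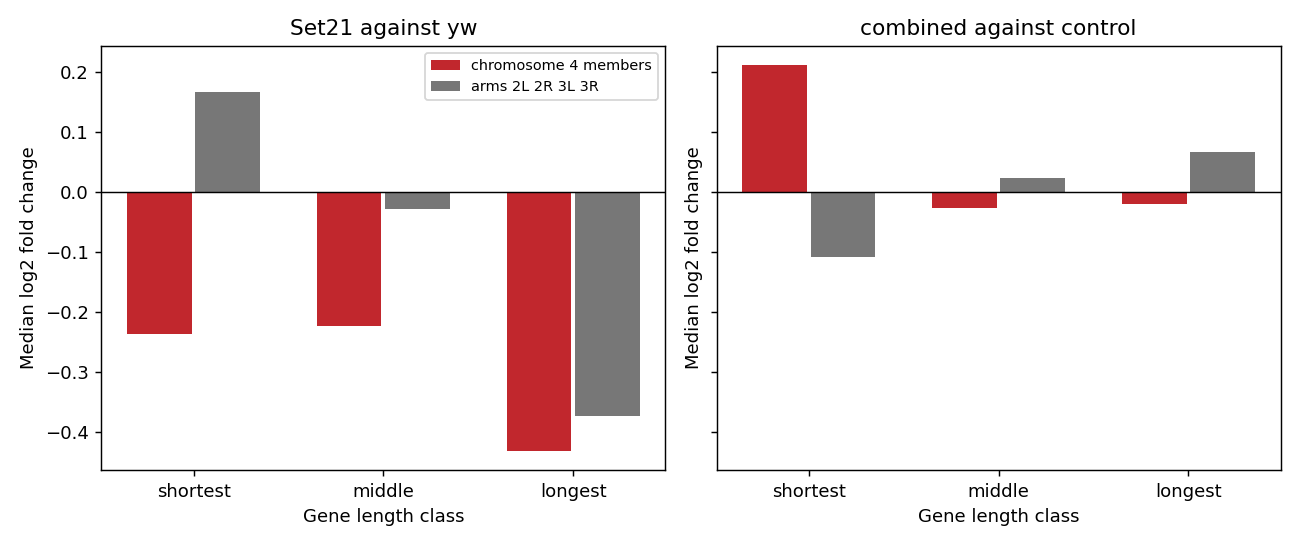
Median log2 fold change of chromosome 4 genes (red) and of genes on the 4 large autosomal arms (grey) in 3 classes of gene length, the bounds being those that divide the chromosome 4 genes evenly, for Set21 against yw (left) and combined against control (right). In the left panel the red bars stay between -0.22 and -0.43 in each class, while the grey bars fall with length, 0.17, -0.03 and -0.37.

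When the length trend was removed, 37 genes were called lower and 18 higher in Set21 larvae and the median was -0.13, nearer to 0 than the -0.28 without that step. Shares and a median over all tested genes were not taken in that fit. How the fourth then stood beside them cannot be read. By level, 13 of the 37 most weakly expressed genes, 21 of the 36 in the middle and 13 of the 37 most strongly expressed genes were called lower, with medians of -0.63, -0.32 and -0.12. The weakest class averaged 0.03 to 7.09 CPM. Genes of the other arms were not divided by level, so whether these differences are particular to the fourth cannot be read.

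Combined larvae had another pattern. Against control larvae, 24 of the 110 genes were called lower and 12 higher, where 22.8% of all tested genes were called lower and 16.4% higher, and the medians were 0.02 on the fourth and -0.02 over all tested genes. The share of lower calls, 21.8%, was close to the background, and that of higher calls, 10.9%, was below it. By length class the medians on the fourth were 0.21, -0.03 and -0.02 for short, middle and long genes, and on the large arms -0.11, 0.02 and 0.07. Among called genes that averaged at least 5 CPM and whose groups did not overlap, the largest falls were those of apolpp, asRNA:CR44029, CG11076, ATPsynbeta, eIF4G1 and Arf4, in that order, and the largest rises those of Ekar, yellow-h and Mpv17.

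apolpp had 885, 709, 1593 and 1286 CPM in combined libraries, against 3481, 4171, 4514 and 4380 CPM in control libraries. No combined library came near the control range, and the log2 fold change was -1.89 ± 0.19 (adjusted p = 1.33e-07). ATPsynbeta had 642, 608, 862 and 780.1 CPM in combined libraries and 1534, 1511, 1556 and 1472 CPM in control libraries, a log2 fold change of -1.07 ± 0.10 (adjusted p = 5.86e-08). eIF4G1 had 442, 411, 553 and 451 CPM in combined libraries and 777, 756, 904 and 895 CPM in control libraries (-0.84 ± 0.16, adjusted p = 2.39e-04). For each of the 3 the groups were well apart. Arf4 fell by 0.78 ± 0.13, and in all 6 of the 11 genes of energy, lipid carriage, translation and traffic fell, the others not being called, with a median of -0.21. Outside that list, ND-49 fell by 0.74 ± 0.081 and CG11076 by 1.12 ± 0.20. RpS3A, the ribosomal protein gene left out by the rule, fell by 0.28 ± 0.08 (adjusted p = 0.0061).

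Regulators of transcription hardly moved in combined larvae: 1 of 20 was called, Mitf, at -0.23 ± 0.065, and the list's median was 0.03. Of 15 genes of synapses, guidance and transport, 7 fell and 2 rose. Cals, the calsyntenin gene of synapses, had 161.3, 159.8, 163.0 and 172.2 CPM in combined libraries against 223.4, 217.8, 212.5 and 223.1 CPM in control libraries, a fall of 0.42 ± 0.074. Gat fell by 0.59 ± 0.11, PlexA by 0.33 ± 0.078 and PMCA by 0.31 ± 0.069. Ekar, which encodes a kainate-type glutamate receptor known from the eye, had 13.2, 12.7, 9.94 and 12.1 CPM in combined libraries against 2.39, 1.80, 1.49 and 2.56 CPM in control libraries. Its levels stayed below 3.2 CPM in each library of the other 5 genotypes, and the log2 fold change was 2.54 ± 0.23 (adjusted p = 4.35e-08).

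unc-13 had 1049, 1022, 874 and 861 CPM in combined libraries against 686, 666, 605 and 711 CPM in control libraries (0.51 ± 0.16, adjusted p = 0.0137). The groups did not overlap, but the call was lost without control replicate 3 (adjusted p = 0.0515). Kif3C, a kinesin gene, had 4.93, 5.65, 5.59 and 4.28 CPM in combined libraries and 2.79, 2.89, 2.82 and 2.73 CPM in control libraries (0.86 ± 0.21). The gene yellow-h, of the yellow family, rose by 0.97 ± 0.25 and Mpv17, which encodes a mitochondrial membrane protein, by 0.68 ± 0.11. Most of the exons of Mpv17, 94.6% of their bases, overlap those of other genes, and the sources used here do not say whether counting used strand, so its value is uncertain.

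Marker sums in combined larvae were 6870 to 7728 CPM for neurons, against 5996 to 7188 CPM in control larvae. They were 2677 to 3371 CPM for gut and fat body, against 5744 to 7931 CPM, with 5 of 12 of these markers called lower. They were 26668 to 31757 CPM for muscle, against 30258 to 41006 CPM, with 9 of the 16 listed genes, bsh being on the list, called lower. For glia they were 1253 to 1364 CPM against 1340 to 1481 CPM. apolpp is itself expressed in fat body. The list sums genes of gut and fat body together, and the part of these markers in the fall of apolpp was not tested.

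**Figure D4:**
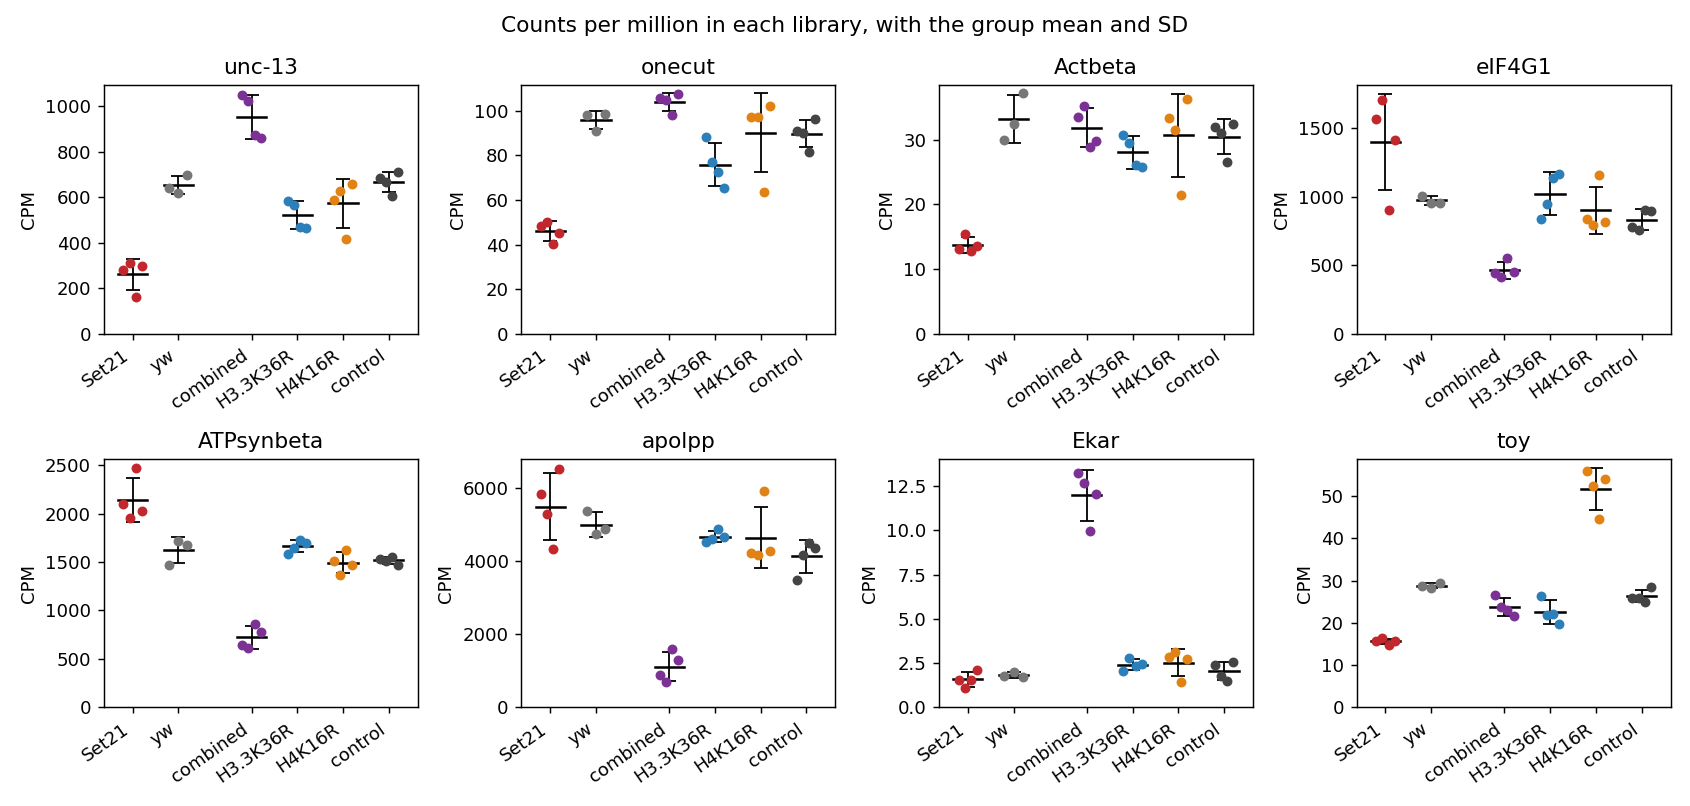
CPM of 8 chromosome 4 genes in each library, with the mean and SD of each genotype; each vertical axis starts at 0. unc-13, onecut and Actbeta are lowest in Set21 libraries, eIF4G1, ATPsynbeta and apolpp are lowest in combined libraries, Ekar is highest in combined libraries at 9.94 to 13.2 CPM, and toy is highest in H4K16R libraries at 44.6 to 56.0 CPM.

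The Set21 and combined comparisons share no library, so their effects can be set side by side. Across the 110 genes, 7 were called lower in both, 1 was called higher in both, 6 were lower in Set21 and higher in combined larvae, and 6 were higher in Set21 and lower in combined larvae. Over all tested genes, 21.1% were lower and 23.4% higher in Set21 larvae, and 22.8% and 16.4% in combined larvae. Joint counts over all tested genes were not taken, so whether this mix is particular to the fourth cannot be read. Pearson's r between the log2 fold changes was -0.155 over the 110 genes and -0.135 over all 14365 tested genes, a description across genes, which share their libraries and are not independent. The first value includes genes with few counts and large fold changes, such as CR33797 (6.17 in Set21 and -1.94 in combined larvae). Its size without them was not computed.

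The 6 genes that rose in Set21 and fell in combined larvae were ATPsynbeta, ND-49, eIF4G1, Arf4, CG11076 and Crk. The Set21 effect exceeded the combined effect by 1.47 ± 0.15 on the log2 scale for ATPsynbeta (adjusted p = 1.97e-07), by 1.14 ± 0.12 for ND-49 and by 1.37 ± 0.24 for eIF4G1. The 6 genes that fell in Set21 and rose in combined larvae were unc-13, Kif3C, CG11155, CG31999 and the noncoding genes asRNA:CR45126 and lncRNA:CR46488, some of which overlap other genes (asRNA:CR45126 lies opposite Taf3), with a difference of -1.83 ± 0.23 for unc-13 (adjusted p = 2.63e-06) and -1.86 ± 0.31 for Kif3C. The difference passed the test for each of these 12 genes. They were picked for calls in opposite directions in the same fit, so that test was nearly bound to pass and adds no support. Over the fourth, the Set21 effect was called below the combined effect for 43 genes and above it for 18, where 23.6% and 27.9% of all tested genes were called. With the length trend removed the counts were 30 below and 27 above, and without Set21 replicate 3 they were 43 and 24. Shares over all tested genes were not taken for those fits.

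The 7 genes lower in both were Gat, Cadps, CaMKII, Ank, CG11360 and the antisense genes asRNA:CR44029 and asRNA:CR43425. The gene higher in both was CG31997, with 64.8, 46.4, 58.4 and 54.8 CPM in Set21 libraries against 26.3, 25.0 and 24.8 CPM in yw libraries, and 46.9, 48.7, 43.9 and 41.9 CPM in combined libraries against 29.7, 27.9, 40.1 and 36.2 CPM in control libraries. Gat fell by 0.56 ± 0.12 and 0.59 ± 0.11, and the difference between these effects was 0.02 ± 0.16. Several calls in combined larvae were near the threshold: those of Cadps, CaMKII, CG31997 and asRNA:CR43425 were lost without 1 or another library, with adjusted p up to 0.0997. In Set21 larvae the calls of CG11360 (0.08), Ank (-0.02) and CaMKII (-0.07) were lost with the length trend removed, and that of CG11360 also without yw replicate 2 or 4.

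**Figure D5:**
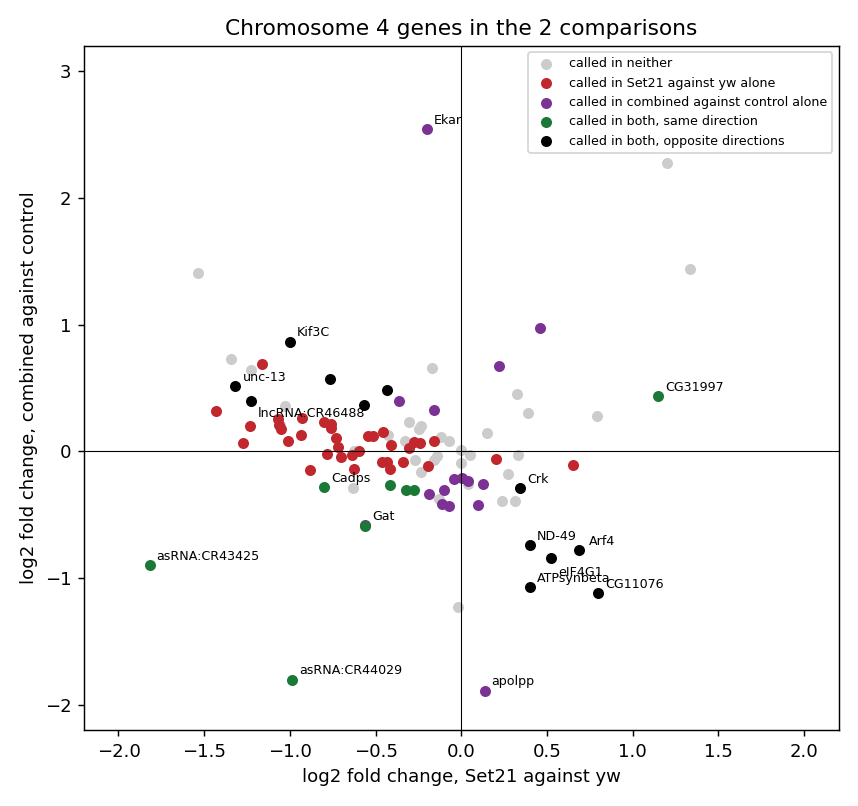
Log2 fold change of each tested chromosome 4 gene in Set21 against yw (horizontal) and in combined against control (vertical), coloured by the calls; 3 weakly expressed genes lie outside the axes. The 12 black points, called in both in opposite directions, fill the upper left and lower right, and Pearson's r over the 110 genes, the 3 outside the axes included, is -0.155.

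asRNA:CR44029 and asRNA:CR43425 lie within the span of unc-13 (chr4:867824-912331 of BDGP6.54, minus strand) on the opposite strand, at chr4:879374-884752 and chr4:867824-871426. asRNA:CR44029 had 3.58, 2.53, 2.18 and 2.01 CPM in combined libraries, 4.66, 4.37, 3.41 and 3.74 CPM in H3.3K36R libraries and 8.06, 8.80, 7.64 and 11.3 CPM in control libraries. Both mutant groups lay below every control library, at log2 fold changes of -1.80 ± 0.20 (adjusted p = 5.84e-07) and -1.15 ± 0.20 (adjusted p = 0.00201). In Set21 larvae it had 5.61, 4.77, 5.92 and 6.25 CPM, against 9.73, 12.8 and 11.03 CPM in yw larvae (-0.99 ± 0.21). It was lower in combined than in H3.3K36R larvae too, by 0.65 ± 0.20, while unc-13 rose by 0.87 ± 0.16 in that comparison. Of its exon bases 13.1% overlap those of another gene, and 100% for asRNA:CR43425, so reads of these genes and of unc-13 cannot be told apart there without the strand setting.

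H3.3K36R alone changed few genes of the fourth. Against control larvae, 2 were called lower and 0 higher by edgeR, where 1.02% and 0.947% of all tested genes were called. At an unadjusted p below 0.05 the counts were 20 lower and 5 higher, and DESeq2 called 7 lower and 0 higher. Without control replicate 3, 5 were called lower. The median was -0.10 on the fourth and 0.03 over all tested genes, and 76 of the 110 log2 fold changes were below 0. The called genes were asRNA:CR44029 and lncRNA:CR44440, which had 0.990, 0.864, 0.556 and 0.440 CPM in H3.3K36R libraries against 1.44, 1.94, 1.63 and 1.48 CPM in control libraries (-1.19 ± 0.22, adjusted p = 0.00458). In a fit of these 2 groups alone the second call was lost (adjusted p = 0.059).

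Set against H3.3K36R larvae, combined larvae show what the change in H3.2 adds. Here 27 genes of the fourth were called higher and 19 lower, where 19.7% and 28% of all tested genes were called, and the median was 0.15 on the fourth and -0.03 over all tested genes. The split depended on the processing. It was 38 higher and 14 lower with RLE factors, 39 and 15 with DESeq2, and 36 and 16 with a minimum count of 50. With the length trend removed it was 27 and 23. Shares over all tested genes were not taken under these settings. Ekar (2.31 ± 0.23), unc-13 (0.87 ± 0.16), CG11155 (0.57 ± 0.12) and pan (0.53 ± 0.11) rose, and apolpp (-2.06 ± 0.19), CG11076 (-1.50 ± 0.20), ATPsynbeta (-1.20 ± 0.10) and eIF4G1 (-1.14 ± 0.16) fell. pan had 328, 312, 279 and 271 CPM in combined libraries against 231.5, 210.5, 195.4 and 184.3 CPM in H3.3K36R libraries. Among the 20 regulators of transcription, 5 rose and the others were not called.

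In H4K16R larvae, 1 gene of the fourth was called higher than in control larvae and 0 lower by edgeR, where 0.278% and 1.03% of all tested genes were called. The unadjusted counts were 4 and 4, and DESeq2 called 1 higher and 2 lower. The called gene was toy, with 56.0, 52.5, 44.6 and 54.0 CPM in H4K16R libraries against 25.98, 25.92, 25.04 and 28.49 CPM in control libraries. The lowest H4K16R library stood well above the highest control library, and the log2 fold change was 0.97 ± 0.09 (adjusted p = 2.89e-06). The other Pax6 gene, ey, had 14.9, 13.3, 9.15 and 14.3 CPM in H4K16R libraries and 13.1, 12.7, 11.3 and 14.1 CPM in control libraries and was not called (0.01 ± 0.15). The effect on toy in Set21 larvae was below that in H4K16R larvae by 1.86 ± 0.13 (adjusted p = 6.29e-09). As toy was called in opposite directions by the same fit, that test was nearly bound to pass and adds no support.

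Without H4K16R replicate 3, toy remained called and yellow-h, at 4.26, 5.17 and 6.43 CPM in the other H4K16R libraries and 12.9 CPM in replicate 3, was called lower. The median was 0.00 on the fourth in H4K16R larvae, with -0.16 on the X and 0.07 to 0.09 on arms 2L, 2R, 3L and 3R. The Set21 effect was called below the H4K16R effect for 26 genes and above it for 5, where 14.1% and 9.48% of all tested genes were called. Without H4K16R replicate 3 the counts were 31 and 11, and with the length trend removed 19 and 10. Without yw replicate 3, yw replicate 4 or H4K16R replicate 1 or 4, 3 genes were above, and without Set21 replicate 3, 8 were. Shares over all tested genes were taken in the main fit alone.

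Control larvae and yw larvae differed little on the fourth. There were 0 calls in either direction by edgeR's quasi-likelihood test, where 4.08% of all tested genes were called lower and 4% higher; 8 genes were lower and 3 higher at an unadjusted p below 0.05, and DESeq2 called 1 higher. The median was -0.04 on the fourth and -0.03 over all tested genes.

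Factors known to act on the fourth or on its chromatin, encoded on other chromosomes, were looked at beside the members. Pof averaged 11.1 ± 0.96 CPM in Set21 and 11.2 ± 0.82 CPM in yw larvae, and 9.44 ± 1.2 CPM in combined and 9.67 ± 0.96 CPM in control larvae, and was not called (adjusted p = 0.905 and 0.841). Of 24 such genes, 7 rose and 4 fell in Set21 larvae, with Set2 among the 4, and 5 rose and 2 fell in combined larvae. Over all tested genes, 23.4% rose and 21.1% fell in Set21 larvae, and 16.4% rose and 22.8% fell in combined larvae. Without Set21 replicate 3, 8 rose and 2 fell in Set21 larvae.

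The gene of HP1a averaged 75.7 ± 6.4 CPM in Set21 and 47.7 ± 2.0 CPM in yw larvae (0.67 ± 0.16, adjusted p = 0.00236), and 37.6 ± 3.1 CPM in combined and 41.5 ± 6.8 CPM in control larvae, where it was not called. egg rose by 0.24 ± 0.09 in Set21 larvae (adjusted p = 0.0348). Su(var)3-9, which encodes another lysine 9 methyltransferase, rose by 0.52 ± 0.15 in Set21 larvae and fell by 0.94 ± 0.14 in combined larvae. Kdm4B, which encodes a demethylase of lysines 9 and 36, fell by 0.71 ± 0.13 in Set21 larvae, and ash1, which encodes a lysine 36 methyltransferase, rose by 0.52 ± 0.08 in combined larvae.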

How the data were processed

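Per the file header, the table deposited by the authors holds read counts, as whole numbers per FlyBase gene, with no normalization. The submitters' processing notes name STAR 2.7.2a and Subread 2.0.3; the genome build, annotation, strand setting and treatment of multiply mapped reads are among what the sources used here do not give. Per the labels' protocols, RNA was taken in Trizol and sequenced in paired ends of 100 bp from Nugen Ovation Universal kit libraries. The submitters left out yw replicate 1 for a library construction error. Where nothing says that replicates came from separate crosses, p-values measure the spread between these samples, which may be technical.

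Symbols, positions and lengths came from the BDGP6.54 annotation, matched for 17527 of 17606 identifiers; the positions are of that release, which may not be the build behind the counts. edgeR 4.0.16 (R 4.3.3) with filterByExpr at a minimum count of 10, TMM factors and robust quasi-likelihood fits was run on all 23 libraries with 1 mean per group (17 residual degrees of freedom). Tests were two-sided, with Benjamini-Hochberg adjustment over 14365 genes and calls below 0.05. Differences between effects were contrasts of the same fit. CPM uses TMM-scaled totals, and the index uses log2 CPM with a prior count of 2. On simulated counts with the same 14365 genes, set up as Set21 against yw, 84% of 100 genes changed by 1 on the log2 scale and 99% of 100 changed by 2 were recovered, with 5 false calls. The changed genes averaged above 1 CPM and were far fewer than those called in the real comparison. No library was made to stand apart. These figures may therefore not carry over to weaker genes, smaller changes or the real libraries.

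Members and gene lists were chosen with earlier results of these data known. Genes named were those on the lists; per comparison up to 6 called rises and 6 falls whose groups did not overlap and averaged 5 CPM or more; those called in both Set21 and combined larvae; and the 6 of highest mean CPM. Genes named for a low count or a lost call were chosen after their values were seen. Alternatives were RLE factors, TMM factors from autosomal arms, no filter, a minimum count of 50, DESeq2 1.42.0, the compared groups alone, replicate number as a block, removal of a length trend, an index prior count of 0.5, and leaving out each library. Shares of calls over all tested genes were taken in the main fit only. Sequence windows and motifs were not used here.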

Additional observations from a re-analysis of the deposited data

Results flagged for a closer look

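In 200 groups of 4 libraries (40 quantities, 5 genotypes), 20 had a highest or lowest library set apart from the others by a gap of more than 0.829 of the group's range, a bound that chance passes in about 1 of 20 groups. Of the 20, H4K16R replicate 3 gave 9 and Set21 replicate 3 gave 2.

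H4K16R replicate 3 was the highest of its group for CG31997 (48.8 CPM), Arf4 (79.87 CPM), apolpp (5925 CPM) and eIF4G1 (1159 CPM). It was the lowest for onecut (63.76 CPM), CG1909 (25.71 CPM), CG11155 (73.92 CPM), pan (197.6 CPM) and the summed glia markers (1216 CPM). Set21 replicate 3 was the lowest for Crk (55.54 CPM) and the summed neuron markers (1812 CPM). Its group's highest for Kif3C was Set21 replicate 4, at 1.688 CPM.

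Combined replicate 3 was the highest of its group for CG11076 (63.35 CPM) and the lowest for CG1909 (35.14 CPM), and combined replicate 4 was the highest for CaMKII (202 CPM) and the summed glia markers (1364 CPM). H3.3K36R replicate 1 was the lowest for bt (6390 CPM). Control replicate 3 was the lowest for Gat (125.4 CPM) and the summed neuron markers (5996 CPM), and control replicate 2 for the summed muscle markers (30260 CPM).

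Effects also differed between genotypes by the test of the difference. The Set21 effect differed from the combined effect for 61 genes of the fourth, with 39.1% of its tested genes below and 16.4% above. Over all tested genes, 23.6% were below and 27.9% above. The Set21 effect differed from the H4K16R effect for 31 genes of the fourth, 23.6% below and 4.55% above. Over all tested genes, these shares were 14.1% and 9.48%. Among genes called in both Set21 and combined larvae in opposite directions, the Set21 effect was above the combined effect on the log2 scale by 1.47 for ATPsynbeta, 1.47 for Arf4, 1.14 for ND-49, 1.37 for eIF4G1, 1.92 for CG11076 and 0.63 for Crk. The differences were -1.83 for unc-13, -1.86 for Kif3C, -0.93 for CG11155, -0.91 for CG31999, -1.34 for asRNA:CR45126 and -1.63 for lncRNA:CR46488. As these genes were picked for opposite calls, the test of their difference adds no support.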

How the results depend on the processing

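Of 110 values recomputed under 9 settings other than leaving out a library, 101 stayed near the main value. A count did so if its higher and lower calls together stayed within 1.5 times. A median or index difference did so if it moved by no more than the spread of the index between replicates. Direction was not part of this rule. The split of a count could therefore shift, as for combined against H3.3K36R with RLE factors or DESeq2. The exceptions were these. For H3.3K36R against control, the count of 2 called genes became 6 with the replicate block, 1 in a fit of the 2 groups alone and 7 with DESeq2, and 2 to 5 when each library was left out. For control against yw, the count of 0 became 1 with the replicate block, 2 with the length trend removed, 1 in a fit of the 2 groups alone, 1 with DESeq2 and 0 to 1 without each library, and its median of -0.04 ran from -0.069 to 0.046, the highest without control replicate 3. For H4K16R against control, the count of 1 became 3 with DESeq2 and 1 to 2 without each library. With the length trend removed the median for Set21 against yw was -0.13, against -0.28, and the log2 fold changes of CG11360, Sox102F and Eph reversed to 0.078, 0.035 and 0.092; the Set21 effect minus the combined effect reversed to 0.06 for Eph and 0.099 for Cadps. The cause was not tested.

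Without each library, Set21 against yw gave 47 to 60 called genes, combined against control 28 to 32 and combined against H3.3K36R 36 to 51. Of the called genes, 36 of 57 in Set21, 22 of 36 in combined and 30 of 46 in combined against H3.3K36R had no call lost with its direction kept. The 3 reversals in Set21 larvae, and genes that a setting's filter left out, do not count as losses there. Replicates that share a number correlated at -0.04 to 0.43 in their deviations. Among the histone genotypes the values were 0.142 to 0.268 for replicate 1 and 0.171 to 0.432 for replicate 3. For replicates 2 and 4 they ran from -0.037 to 0.114. The main fit used no pairing, and whether replicates of 1 number share more than the number was not tested. Genes with few counts, such as CR33797, and genes overlapping others are the least certain.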
